A study of Mus musculus with 6 samples.

Results

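The cytosolic ribosomal protein genes were followed in cultured mouse CD8+ effector T cells (Teff) with and without stearoyl-CoA desaturase 1, the enzyme that makes monounsaturated fatty acids from saturated ones. A gene was counted as a ribosomal protein gene when its symbol was Rpl or Rps followed by a number, with an optional a, l, x or y and a further number, or was Rplp0, Rplp1, Rplp2 or Rpsa. By this rule 85 of the 34745 listed genes were members. Of these, 33 were named for a protein of the small (40S) subunit and 52 for a protein of the large (60S) subunit. By name, 8 of the 85 were paralogs, relatives of a usual gene that is also a member. By the labels, poly(A) RNA was sequenced in 6 libraries, 3 labelled Scd-1-/- (B6.129-Scd1tm1Ntam/J mice, which lack the gene in every tissue) and 3 labelled WT (C57BL/6J mice), from male mice of 6 to 8 weeks. By the methods, CD8+ T cells were isolated from mouse spleens with a kit before culture. Both groups received 5 µg/mL anti-CD3, 0.5 µg/mL anti-CD28 and 100 U/mL IL-2 for 3 days and IL-2 for a further 3 days before harvest at day 6. The methods speak of independent experiments in general, but neither they nor the labels tie these libraries to separate mice, so p-values measure only the spread between these samples, which may be technical.

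A cytosolic ribosome joins a 40S subunit, which reads the mRNA, to a 60S subunit, which makes the peptide bond, and each subunit holds ribosomal RNA and 1 copy of most ribosomal proteins. Ribosomal protein mRNAs are among the most abundant in growing cells, and many begin with a C and a run of pyrimidines, the 5′ terminal oligopyrimidine (TOP) motif, through which mTORC1 and LARP1 control their translation. T cells that are activated through CD3 and CD28 enlarge and raise ribosome production before they divide. Most ribosomal protein genes have many near-identical processed pseudogenes elsewhere in the genome.

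Libraries held 14034479 to 15866216 counts. Scd1 had 3074 to 4272 counts in the WT and 20 to 36 counts in the Scd-1-/- libraries. All 8 markers of CD8+ T cells were at or above the minimum of 1 FPKM (the deposited length- and depth-scaled level), and their summed FPKM was 2269 to 2809 in WT and 2234 to 2594 in Scd-1-/- libraries. Of the coreceptor genes that define the cells, Cd8a had 43.2, 47.6 and 47.1 FPKM in WT and 36.6, 27.9 and 33.7 FPKM in Scd-1-/- libraries, without overlap, at a log2 fold change of -0.46 (standard error 0.139, BH-adjusted p = 0.297, edgeR QL). Cd8b1 had 329.9, 289.6 and 275 FPKM in WT and 299, 202 and 215 FPKM in Scd-1-/- libraries, at -0.30 (standard error 0.181), with overlap. The share of counts on mitochondrially encoded genes was 1.66 to 1.78% in WT and 2.25 to 3.202% in Scd-1-/- libraries, so it moved with genotype. The 4 NK cell markers summed to 0.501 to 1.16 FPKM in WT and 1.82 to 9.39 FPKM in Scd-1-/- libraries, almost all of it Klrb1c, with Ncr1 at or under 0.222 FPKM. Klrb1c had a WT mean of 0.748 FPKM, under the minimum, so it entered the tested genes only through the Scd-1-/- libraries, where it was higher. Its log2 fold change was 3.09 (BH-adjusted p = 0.121, edgeR QL). With the replicate number as a block it was 2.88 (BH-adjusted p = 0.00591, edgeR QL). Both values are therefore a description and support nothing. Of the 5 B cell markers only Cd79b reached the minimum, at a summed 9.41 to 10.7 FPKM for the list in WT and 3.13 to 7.99 FPKM in Scd-1-/- libraries, and Ms4a1 and Pax5 had no counts. Cd79b had a log2 fold change of -1.02 (BH-adjusted p = 0.387, edgeR QL), which was -1.13 and called with the block (BH-adjusted p = 0.0434). The 6 myeloid markers summed to 0.374 to 1.11 FPKM in WT and 1.88 to 2.24 FPKM in Scd-1-/- libraries, and none reached the minimum. Most of the Scd-1-/- sum was Cd14, at 0.461, 0.227 and 0.179 FPKM in WT and 1.14, 1.89 and 1.60 FPKM in Scd-1-/- libraries. Mean FPKM was lower in Scd-1-/- for Lyz2 and S100a8, higher for Csf1r, and opposite in direction between the Itgam entries, while Adgre1 was at 0 FPKM throughout. The part of these differences in the ribosomal protein values was not tested. In bulk RNA, fewer cells of a type and less RNA per cell cannot be told apart.

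The start sites of the members were read for a TOP-like tract, since this tract is what the group is known for. In the RefSeq promoter table for GRCm38.p6, 64 of the 85 members matched by symbol and had 76 start sites. A tract was a C followed by at least 6 bases that are each C or T, on the sense strand, in the 30 bases from 15 before to 15 after the start. It was present at 33 of the 76 sites (43.4%), at 11 of 74 sites of mitochondrial ribosomal protein genes (14.9%) and at 14.2% of all 32851 sites. The windows of 4 members with a long tract and 3 without one are shown, with the longest C-initial pyrimidine run in capitals and the start at the 16th base. A match describes these letters only, and a window without one says nothing of control at another start.
Rps6, chr4:86857353-86857382, minus strand: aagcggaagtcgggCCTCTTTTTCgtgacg
Rpl13a, chr7:45128731-45128760, minus strand: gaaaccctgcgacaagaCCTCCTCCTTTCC
Rpl7a, chr2:26910792-26910821, plus strand: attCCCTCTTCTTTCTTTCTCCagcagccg
Rpl27a, chr7:109519180-109519209, plus strand: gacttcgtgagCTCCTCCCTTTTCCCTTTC
Rpl5, chr5:107900513-107900542, plus strand: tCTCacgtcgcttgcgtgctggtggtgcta
Rpl23, chr11:97782425-97782454, minus strand: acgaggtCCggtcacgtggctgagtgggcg
Rpsa, chr9:120127751-120127780, plus strand: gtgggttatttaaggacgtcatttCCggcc
Members with and without a tract were found both among those with the largest genotype differences described later (Rpl39l, Rps27l and Rpl22l1 with a tract, Rpl5, Rpl23, Rps23 and Rpl36al without) and among those with the highest FPKM (Rpl13a with, Rpsa without).

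The coding sequences of 2 small members show how closely some genes resemble each other, which bears on how their counts can be read. Sequences were built from GENCODE M21 transcripts (GRCm38), and capitals mark bases that differ from the first sequence of the pair. Rps27 lies at chr3:90212522-90213651 and its retrocopy Rps27rt at chr9:114982366-114982739, and their coding sequences were identical over 255 bases. The paralog Rps27l (chr9:66946086-66949516) differed from Rps27 at 61 of the 255 bases (76.1% identity).
Rps27: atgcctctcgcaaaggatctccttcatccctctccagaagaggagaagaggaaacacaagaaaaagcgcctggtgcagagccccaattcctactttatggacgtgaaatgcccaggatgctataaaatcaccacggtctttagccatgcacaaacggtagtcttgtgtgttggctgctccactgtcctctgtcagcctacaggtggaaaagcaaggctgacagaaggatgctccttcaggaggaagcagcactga
Rps27l: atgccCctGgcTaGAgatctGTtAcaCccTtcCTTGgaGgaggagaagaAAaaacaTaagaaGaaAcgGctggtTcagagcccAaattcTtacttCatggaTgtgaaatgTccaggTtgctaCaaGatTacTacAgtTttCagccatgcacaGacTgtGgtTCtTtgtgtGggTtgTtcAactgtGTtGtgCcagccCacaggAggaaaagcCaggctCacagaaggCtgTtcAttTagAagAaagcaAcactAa
Rpl39 (chrX:37082520-37085402) and its paralog Rpl39l (chr16:10170226-10174911) differed at 23 of 156 bases (85.3% identity), while Rpl39-ps on chromosome 15 differed from Rpl39 at 1 of 150 shared bases.
Rpl39: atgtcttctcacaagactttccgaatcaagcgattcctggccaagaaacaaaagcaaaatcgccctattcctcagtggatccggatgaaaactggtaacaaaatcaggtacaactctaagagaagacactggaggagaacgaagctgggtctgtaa
Rpl39l: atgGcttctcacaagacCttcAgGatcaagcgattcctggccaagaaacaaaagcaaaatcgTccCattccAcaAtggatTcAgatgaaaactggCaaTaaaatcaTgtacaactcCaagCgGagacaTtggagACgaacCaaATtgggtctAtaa
Rps27 and its identical copy can therefore not be separated by a read within the coding sequence, whereas Rps27l and Rpl39l can be separated from their parents.

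No ribosomal protein gene was called between Scd-1-/- and WT Teff by either rule in the fit without replicate numbers, and 1 paralog, Rps27l, was called once they were added as a block. Of the 85 members, 81 had a mean of at least 1 FPKM over the 6 libraries and were tested. None of the 81 passed the thresholds that the study used (absolute log2 fold change of at least 1 with an unadjusted p under 0.001), which 71 of all 9627 tested genes passed (0.738%). None had a BH-adjusted p under 0.05 (Benjamini-Hochberg, over all tested genes) in the quasi-likelihood (QL) test of edgeR, which 11 genes had (0.114%). At an unadjusted p under 0.05 the members counted 2 of 81, against 10.1% of all tested genes. DESeq2 likewise called no member, and 3 members had an unadjusted p under 0.05 there. With the replicate number as a block, 1 of 81 members had a BH-adjusted p under 0.05 (edgeR QL), against 4.70% of all tested genes, and 9 of 81 had an unadjusted p under 0.05, against 22.4%. In neither fit was the members' share above that of the whole table by these counts.

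The precision allowed more to be said than the absence of calls. The median standard error of a member's log2 fold change was 0.143. The 95% interval of the log2 fold change lay within 1 of 0 for 77 of the 81 members, against 77.0% of all tested genes, and within 0.5 of 0 for 54 members, against 21.4%. The first is not particular to the members. Intervals within 1 were also found for 75 of 77 mitochondrial ribosomal protein genes, 22 of 22 other TOP messages and 19 of 19 genes of TOP control. Within 0.5 these lists had 29, 15 and 5 genes. The 4 members whose interval reached past 1 were Rpl39l, Rps27l, Rps29 and Rps4l. The members' fold changes had a median of 0.06 on the log2 scale, against -0.00051 over all tested genes, and 56 of the 81 lay above 0, against 49.9% of all tested genes. This median is smaller than the spread of the members' median level between replicates, an SD of 0.134 on the log2 scale. The median was 0.06 both for the 32 tested 40S members (23 above 0) and for the 49 tested 60S members (33 above 0).

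**Figure D1:**
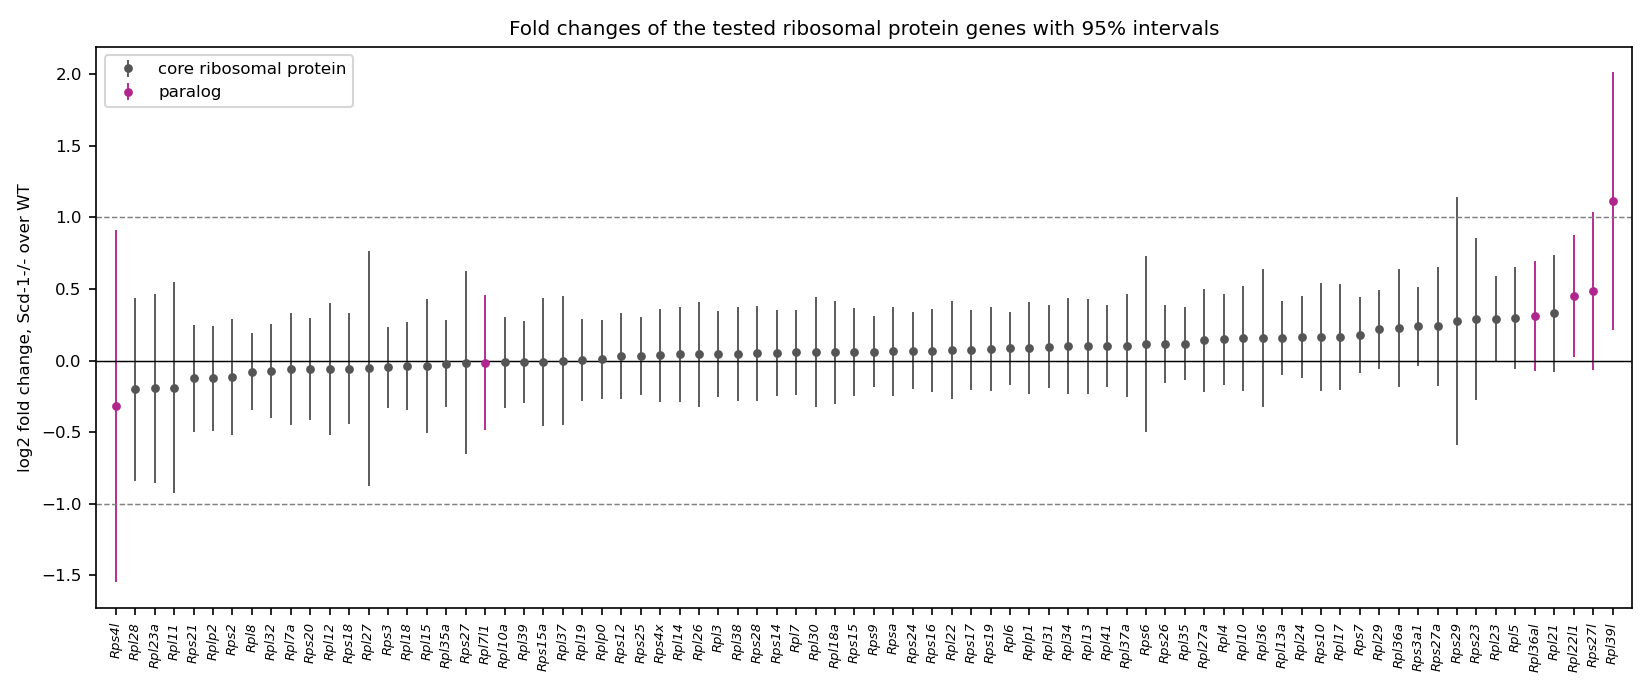
Log2 fold change of Scd-1-/- over WT (vertical axis) for 78 of the 81 tested ribosomal protein genes (horizontal axis, in order of fold change), with 95% intervals from the edgeR QL fit as bars. Core genes are grey and paralogs magenta, and dashed lines mark a log2 fold change of 1 in either direction. Intervals of 74 genes stay between the dashed lines, and 3 of the paralogs hold the 3 highest values.

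As a share of all counts, the members took 8.30, 7.42 and 7.39% in WT replicates 1, 2 and 3 and 8.17, 7.46 and 7.89% in the Scd-1-/- replicates. Replicate 1 was highest in both genotypes, and the groups overlapped. Mean shares were 7.70 ± 0.519% (WT) and 7.84 ± 0.360% (Scd-1-/-), each with its SD over n = 3, and they differed by 0.135 percentage points, which is smaller than the pooled SD of 0.446. Its sign is not fixed, since it ran from -0.0324 without Scd-1-/- replicate 1 to 0.434 without WT replicate 1. Each of these leaves the high replicate 1 of the other genotype without its partner. Within replicate numbers the share of counts was lower in Scd-1-/- for replicate 1 and higher for replicates 2 and 3. On summed FPKM, which weights short genes more, the members held 14.5, 13.6 and 13.5% in WT and 14.1, 12.9 and 13.2% in Scd-1-/- libraries, so the difference there was -0.464 percentage points, lower within each replicate number (3 of 3). The summed FPKM itself was higher in Scd-1-/- within each number (52781 to 52857, 47977 to 48157 and 47638 to 51407), so the direction depends on the denominator. The 40S members held 49.2, 48.8 and 48.6% of the members' counts in WT and 48.49, 48.53 and 48.49% in Scd-1-/- libraries, a small gap without overlap. Rpsa, the 40S protein also known as the laminin receptor, held 8.50% of the members' counts, and Rplp0, the base of the 60S stalk that recruits translation factors, held 6.67%.

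Levels differed far more between members than between genotypes. The deposited FPKM uses a gene length that exceeded the longest GENCODE M21 transcript for 67 of 84 members (79.8%, against 68.3% of all genes), with a median of 2470 bases where the median member mRNA had 705 bases. FPKM was therefore used to compare libraries, and depth-scaled counts per kilobase of mRNA were used beside it to compare genes. Rplp1, a 60S stalk protein, had the highest level in FPKM, at 5127, 4120 and 4110 in WT and 5032, 4453 and 4510 in Scd-1-/- libraries. Rpl8, Rpl13a and Rpsa were among the next in mean FPKM, and their libraries ranged from 3077 to 4011 FPKM. The ranges of these 3 overlapped, so their order is not set by these data. Per kilobase of mRNA the highest was Rpl41, a very short 60S protein, at 5514, before Rps15 at 4790 and Rplp1 at 4522.

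The stalk protein Rplp0 had 1966, 1894 and 1710 FPKM in WT and 1960, 1749 and 1805 FPKM in Scd-1-/- libraries. Rplp2, the partner of Rplp1 in the stalk, had 354, 303 and 289 FPKM in WT and 337, 271 and 248 FPKM in Scd-1-/- libraries. The groups overlapped for all stalk genes, whose log2 fold changes were 0.09 (Rplp1, standard error 0.139), 0.01 (Rplp0, 0.118) and -0.12 (Rplp2, 0.158). The sign for Rplp0 is not fixed, since it was -0.015 when scaled by library totals. Rplp1 ran from 0.018 without WT replicate 3 to 0.22 without WT replicate 1, and Rplp2 from -0.26 without Scd-1-/- replicate 1 to -0.014 without WT replicate 1. The 95% intervals of these genes lay between -0.49 and 0.41.

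At the other end of the scale, the lowest 5 tested members in mean FPKM were Rps27 (1.16), Rpl39l (1.24), Rpl23a (2.15), Rps4l (2.37 in Scd-1-/- and 2.98 in WT) and Rpl11 (2.94 in Scd-1-/- and 3.42 in WT). Just under the minimum of 1 FPKM were Rpl9 (0.714) and Rps13 (0.459), and far under it the paralogs Rpl3l and Rpl10l. Rpl3l, the form of Rpl3 found in striated muscle, had 1 count in each of 2 WT libraries and no count in the other 4. Rpl10l, the testis form of Rpl10, had no count in any library, which allows at most 0.189 to 0.214 CPM at these depths. The core members, the 77 that are not paralogs, spanned 0.459 to 4558 FPKM, a 9927-fold range, and a 1022-fold range per kilobase of mRNA, which was still 946-fold with the counts of listed copies added. Most of these proteins enter the ribosome in equal numbers, yet their genes were listed at very unequal levels, also with the listed copies added.

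**Figure D2:**
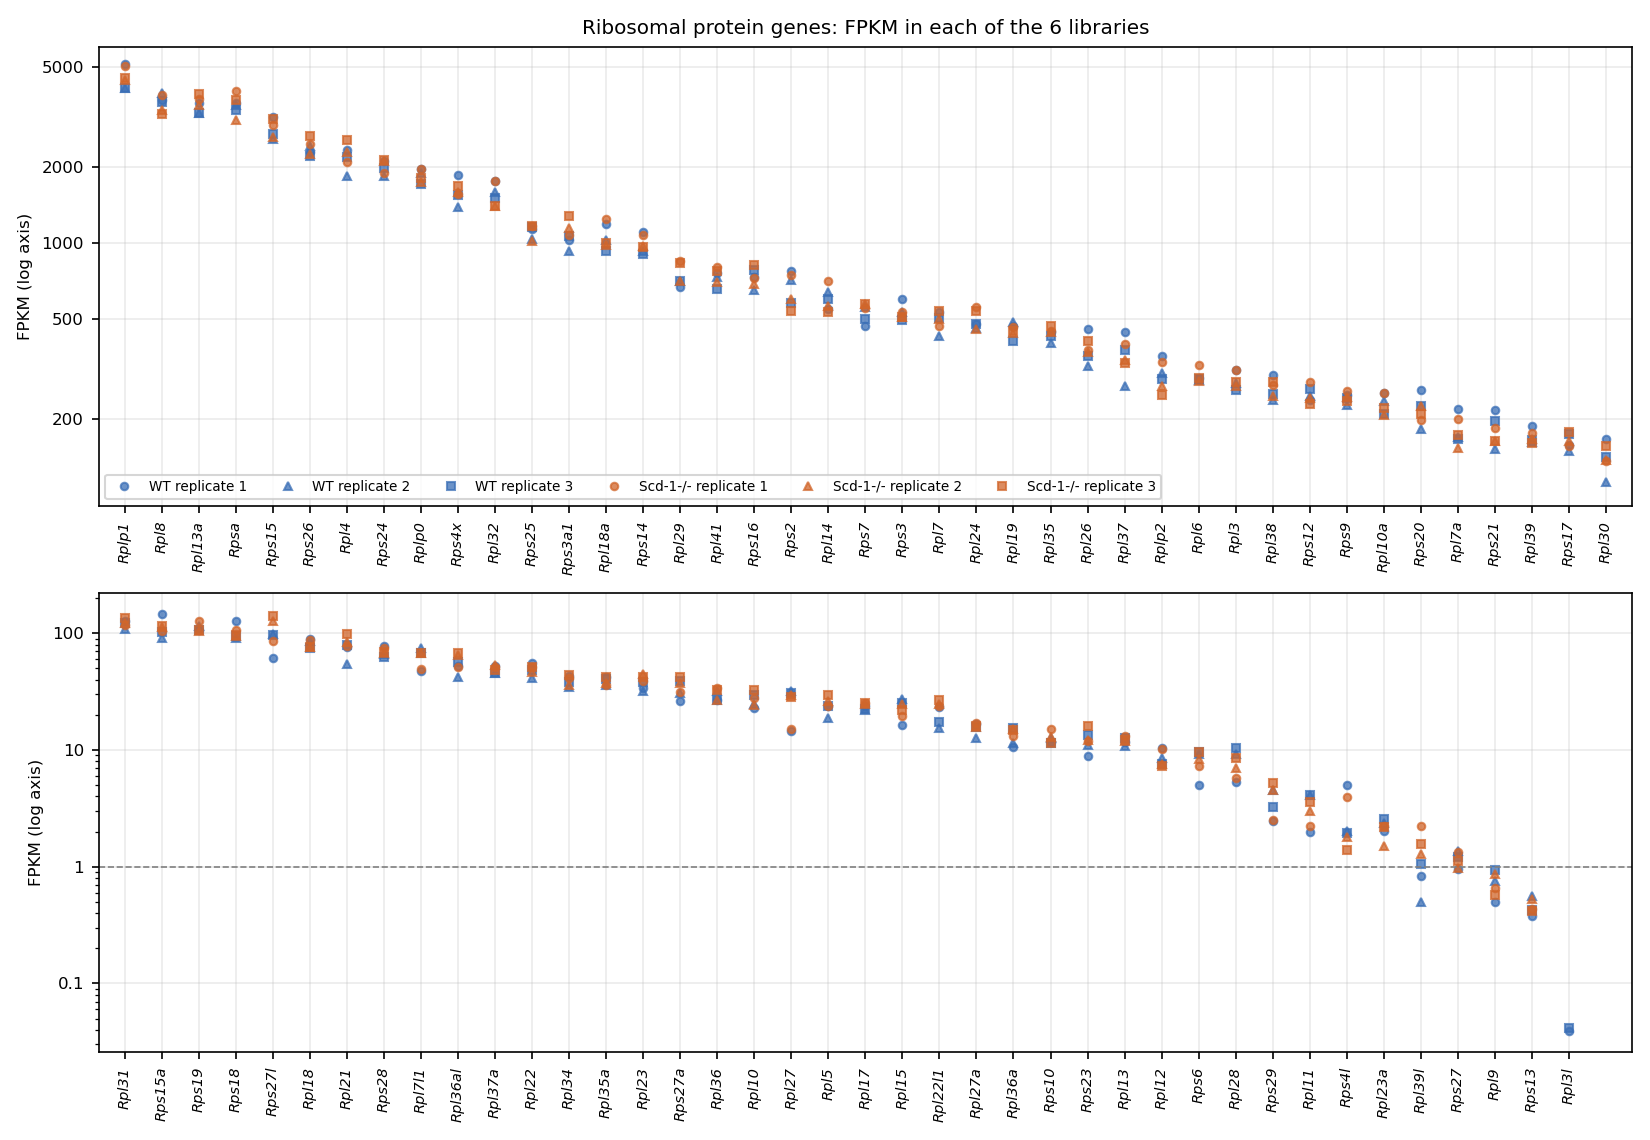
FPKM on a log axis (vertical) of 81 of the 84 ribosomal protein genes with at least 1 count, in order of mean FPKM (horizontal), in each of the 3 WT (blue) and 3 Scd-1-/- (orange) libraries, with a symbol for each replicate number. The dashed line is the minimum of 1 FPKM for testing, values of 0 are not drawn, and the libraries of a gene lie close together while genes run from 4558 FPKM for Rplp1 to under 1 FPKM.

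Near-identical copies were sought by aligning the coding sequences of 84 members to all GENCODE M21 transcripts, at 95% identity or more over 80% or more of the coding sequence. Rps4l has no coding model there and was not searched. In all, 78 members had at least 1 copy outside their own locus and 6 had none, among them Rpl8, Rps27l, Rpl39l and Rpl3l. There were 571 copies, of which 49 were listed with counts in the deposited tables. Rpl21, with 57 copies, had the most. The treatment of reads matching more than 1 gene is not given in the sources used here, so counts of these members are uncertain.

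For 12 members the listed copies held more counts than the member itself, and for several the member was almost empty. Rpl23a, a 60S protein at the exit of the peptide tunnel, had 43, 47 and 51 counts in WT and 49, 30 and 49 counts in Scd-1-/- libraries, against 13059 to 19295 counts on its pseudogene Rpl23a-ps3 (chr14:34170655-34171122, 99.8% identity). Rps27, shown above, had a mean of 49.7 counts, and Rps27rt a mean of 6752. Rpl9 had a mean of 115 counts and Rpl9-ps6 (chr19:32465865-32466578) a mean of 13232. Rpl5 and Rpl11 bind the 5S ribosomal RNA and, when free, the p53 regulator Mdm2. Rpl5 had a mean of 1919 counts and Gm15500 (chr7:114705217-114706235), whose match to its coding sequence is 100%, a mean of 38524. Rpl11 had a mean of 213 counts and Gm10036 a mean of 8458. Others were Rpl12, Rpl27, Rpl35, Rpl37, Rpl39 and Rps7. These members were chosen for their copies after their values were seen.

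A low count does not require a listed copy. Rps6, the 40S protein phosphorylated by the S6 kinases, had 4.98, 9.19 and 9.58 FPKM in WT and 7.23, 8.39 and 9.57 FPKM in Scd-1-/- libraries, and its 11 copies were not among the listed genes. Of the 77 core members, 9 had at most 10 FPKM, and all 9 had at least 3 copies, as did 51 of the other 68. The 3 core members with no copy had 528 to 3627 FPKM. Over the 77 core members the number of copies and the mean FPKM had a Spearman correlation of -0.365, a description across genes that share libraries.

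**Figure D3:**
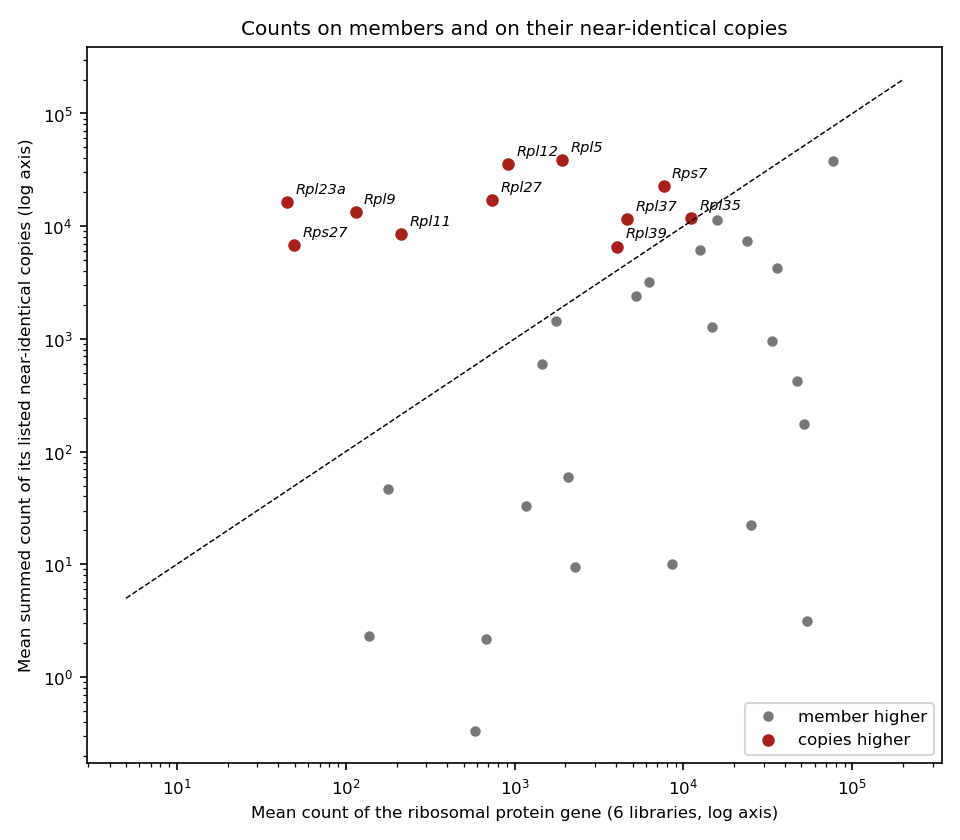
Mean count over 6 libraries of ribosomal protein genes that have a listed near-identical copy with counts (horizontal, log axis) against the mean summed count of those copies (vertical, log axis), with equality as a dashed line. The 11 named genes in red lie above the line, from Rpl35 just above it to Rpl23a and Rps27 with under 50 counts against 6752 or more on their copies.

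Adding the copies changed the level of these members and no genotype call. With listed copies added to their member, members held 9.18 to 10.3% of the counts in WT and 9.31 to 10.2% in Scd-1-/- libraries, and none of them had an adjusted p under 0.05 in the edgeR QL test, BH-adjusted. The log2 fold changes of the 12 members then lay between -0.11 and 0.22.

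Members whose 3 libraries of one genotype all lay on one side of the other numbered 7 of 81 (8.64%), against 16.0% of all tested genes. In 6 of them the Scd-1-/- libraries were higher (Rpl5, Rpl17, Rpl22l1, Rpl23, Rpl39l and Rps3a1), where 7.67% of all genes were. Rpl17 and Rps3a1 are named for this pattern after their values were seen, and had log2 fold changes of 0.17 (standard error 0.159) and 0.24 (standard error 0.120).

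The 10 members with the largest fold changes held 5 of the 6 tested paralogs, given here as a description with no test. Rpl39l, a paralog of the tunnel protein Rpl39 that is known from male germ cells, had the largest. It had 16, 9 and 19 counts in WT and 44, 23 and 32 counts in Scd-1-/- libraries, or 0.825, 0.502 and 1.04 FPKM against 2.21, 1.28 and 1.58 FPKM. All Scd-1-/- libraries lay above all WT libraries at these low counts. Its mean was 0.791 FPKM in WT, under the minimum, and 1.69 FPKM in Scd-1-/- libraries, so it entered the tested genes only through the group where it was higher. Its log2 fold change of 1.11 (standard error 0.387) is therefore a description and supports nothing.

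Rps27l, the paralog of Rps27 that is known as a target gene of p53, had 61.7, 98.7 and 95.9 FPKM in WT and 85.4, 127 and 141 FPKM in Scd-1-/- libraries. Replicate 1 was the lowest in both groups, and the groups overlapped only through it, since within each replicate number the Scd-1-/- library was higher (3 of 3). Its log2 fold change of 0.49 (standard error 0.237, 95% interval -0.06 to 1.04) came with BH-adjusted p = 0.556 (edgeR QL), and ran from 0.31 without WT replicate 1 to 0.67 without Scd-1-/- replicate 1. With the replicate number as a block, the log2 fold change was 0.48 with BH-adjusted p = 0.0345, and Rps27l was then the only member called, in a fit that called 452 of all tested genes, against 11 without the block.

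Rpl22l1 is the paralog of Rpl22, an RNA-binding 60S protein that early T cells need and that is known to hold Rpl22l1 down. It had 23.2, 15.4 and 17.2 FPKM in WT and 24.0, 24.8 and 26.7 FPKM in Scd-1-/- libraries. Every Scd-1-/- library lay above every WT library, by little against WT replicate 1. The log2 fold change was 0.45 (standard error 0.183, 95% interval 0.03 to 0.88), which did not pass the correction (BH-adjusted p = 0.468, edgeR QL). Rpl22 itself had 55.2, 41.3 and 48.1 FPKM in WT and 51.7, 46.2 and 51.8 FPKM in Scd-1-/- libraries, and its log2 fold change was 0.07 (standard error 0.147).

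The other tested paralogs overlapped between the groups. Rpl36al, the autosomal partner of the X-linked Rpl36a, had 52.4, 41.9 and 56.3 FPKM in WT and 51.6, 64.7 and 68.1 FPKM in Scd-1-/- libraries, a log2 fold change of 0.31 (standard error 0.165) that was 0.20 without WT replicate 2. Rpl7l1, a nucleolar relative of Rpl7, had 47.3, 75.1 and 68.2 FPKM in WT and 49.3, 67.6 and 68.4 FPKM in Scd-1-/- libraries, a log2 fold change of -0.01 (standard error 0.204). Rps4l, the autosomal relative of the X-linked Rps4x, had 4.99, 2.02 and 1.95 FPKM in WT and 3.93, 1.80 and 1.38 FPKM in Scd-1-/- libraries, with replicate 1 far above the others in both. Its log2 fold change of -0.32 (standard error 0.530) turned to 0.30 without WT replicate 1, a fit that leaves the high Scd-1-/- replicate 1 without its partner. Within each replicate number the Scd-1-/- library was lower (3 of 3), and with the block the log2 fold change was -0.31 (BH-adjusted p = 0.455, edgeR QL).

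**Figure D4:**
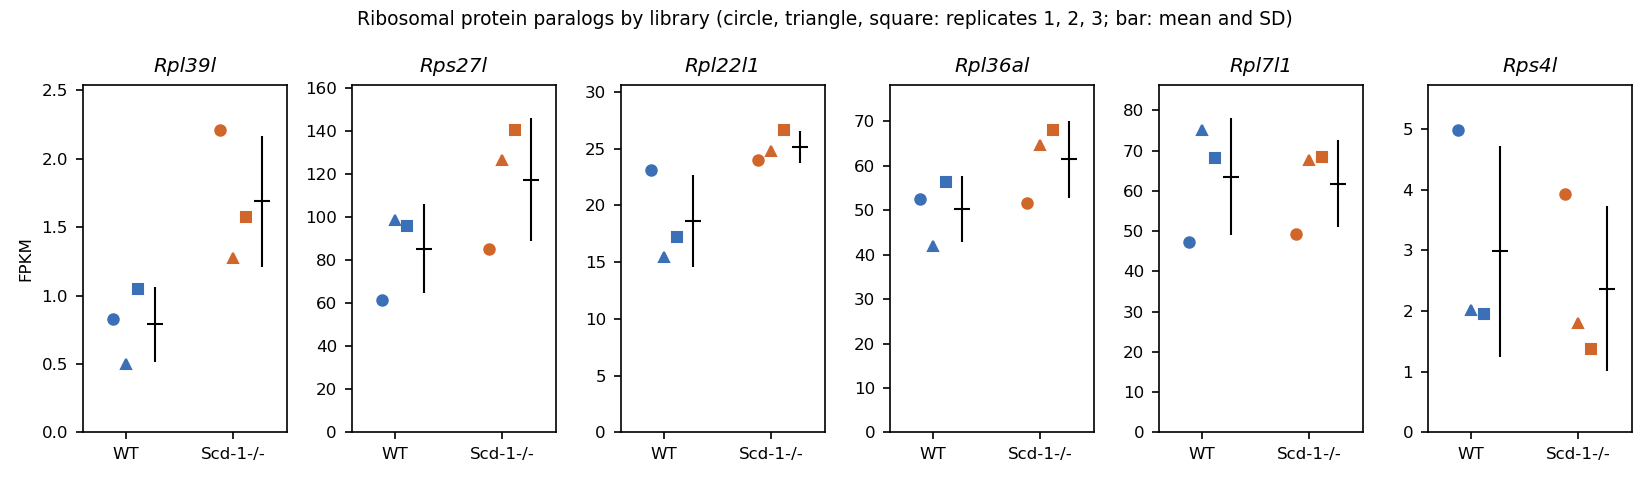
FPKM (vertical, from 0) of the 6 tested ribosomal protein paralogs in the 3 WT (blue) and 3 Scd-1-/- (orange) libraries, with symbols for the replicate numbers and bars for the mean and SD. Rpl39l and Rpl22l1 have every Scd-1-/- library above every WT library, and replicate 1 stands apart from the others for Rps27l, Rpl7l1 and Rps4l in both groups.

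Whether Teff shifted between a parent and its paralog was asked with the log2 of their FPKM ratio, for the 5 pairs with at least 10 counts of both genes in each library. The exact permutation test over 3 against 3 libraries, two-sided, cannot give a p below 0.1. Rpl22l1 over Rpl22 was 0.420, 0.373 and 0.358 in WT and 0.463, 0.537 and 0.515 in Scd-1-/- libraries, without overlap, a log2 difference of 0.40 (exact permutation p = 0.1, the smallest possible, adjusted p = 0.5 over the 5 pairs). Rps27l over Rps27 was 64.4, 72.8 and 78.9 in WT and 64.0, 129 and 127 in Scd-1-/- libraries (exact permutation p = 0.4). Because Rps27rt holds most counts of that pair's parent, the ratio of counts of Rps27l to Rps27 and Rps27rt together was also taken, after the values were seen. It was 0.206, 0.444 and 0.411 in WT and 0.325, 0.600 and 0.654 in Scd-1-/- libraries (exact permutation p = 0.3), higher in Scd-1-/- within each replicate number (3 of 3). The ratios of the other pairs, Rpl36al over Rpl36a, Rpl7l1 over Rpl7 and Rps4l over Rps4x, overlapped between genotypes (exact permutation p = 0.8, 0.9 and 0.5). Within replicate numbers the Rpl22l1 ratio was higher and the Rps4l ratio lower in Scd-1-/- in 3 of 3 pairs each (exact permutation p = 0.25 for both, the smallest that 3 pairs allow).

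The other 5 members of the 10 with the largest fold changes were core genes. Rpl21, a 60S protein, had 76.3, 54.2 and 79.97 FPKM in WT and 78.4, 83.9 and 98.1 FPKM in Scd-1-/- libraries, overlapping at a log2 fold change of 0.33 (standard error 0.176). Rpl5 had 24.0, 18.8 and 23.6 FPKM in WT and 24.0, 26.5 and 29.8 FPKM in Scd-1-/- libraries, at 0.30 (standard error 0.153), and the lowest Scd-1-/- library exceeded the highest WT library by less than 0.1 FPKM. Without WT replicate 2 its fold change was 0.19. Its copy Gm15500 kept 19.1 to 21.4 counts for each count of Rpl5 in all 6 libraries. With the copy added, the log2 fold change of Rpl5 was 0.20 (standard error 0.137). Together they had 42971 counts in WT replicate 1 and 41621 in the deeper Scd-1-/- replicate 1, so the groups then overlapped.

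Rpl23, which binds Mdm2 as Rpl5 does, had 34.2, 32.1 and 38.5 FPKM in WT and 38.7, 44.8 and 42.5 FPKM in Scd-1-/- libraries, at 0.29 (standard error 0.128, 95% interval -0.01 to 0.59), with a narrow gap between the groups. Rps23, a protein of the decoding centre, overlapped at 0.29 (standard error 0.245). Rps29, a small 40S zinc-finger protein with a mean of 47.0 counts, overlapped at 0.28 (standard error 0.374). Without Scd-1-/- replicate 3 the fold changes were 0.13 for Rps23 and 0.054 for Rps29, and Rpl21 was at 0.18 without WT replicate 2. None of these 5 had an adjusted p under 0.05, and their adjusted p ran from 0.509 for Rpl23 to 0.877 for Rps29 in the edgeR QL test, BH-adjusted.

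Replicate number moved many members more than genotype did. In log2 CPM, 42 of the 81 tested members were higher in replicate 1 than in the mean of replicates 2 and 3 in both genotypes, 13 were lower in both, and 26 differed in sign. For 53 of the 81 the mean difference by replicate 1 was larger in size than the difference by genotype. Shares over all tested genes were not computed for these counts or those below, so they say nothing particular to the members. The replicate 1 libraries of WT and Scd-1-/- deviated together over all tested genes too (correlation 0.595, against 0.651 over the members). What a replicate number stands for is not given in the sources used here, and no test was made. Of the 15 core members over 1000 FPKM, 14 were on average higher in replicate 1, by at most 0.33.

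The members that were lower in replicate 1 by more than 0.5 on average were Rpl27, Rpl11, Rps29, Rps27l, Rpl28, Rps6 and Rpl7l1, none with a mean over 102 FPKM. Rpl27, a 60S protein, had 14.5, 32.3 and 30.9 FPKM in WT and 15.1, 29.7 and 28.6 FPKM in Scd-1-/- libraries, so replicate 1 lay 1.08 lower in WT and 0.93 lower in Scd-1-/- on the log2 scale. Its copy Rpl27-ps3 did not follow, with 37.7, 18.2 and 18.2 counts per count of Rpl27 in WT and 41.8, 19.4 and 20.3 in Scd-1-/- libraries. Only Rps4l was higher in replicate 1 by more than 0.5, at 1.34 in WT and 1.28 in Scd-1-/-. Rpl27 and Rpl28 were chosen after their values were seen.

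**Figure D5:**
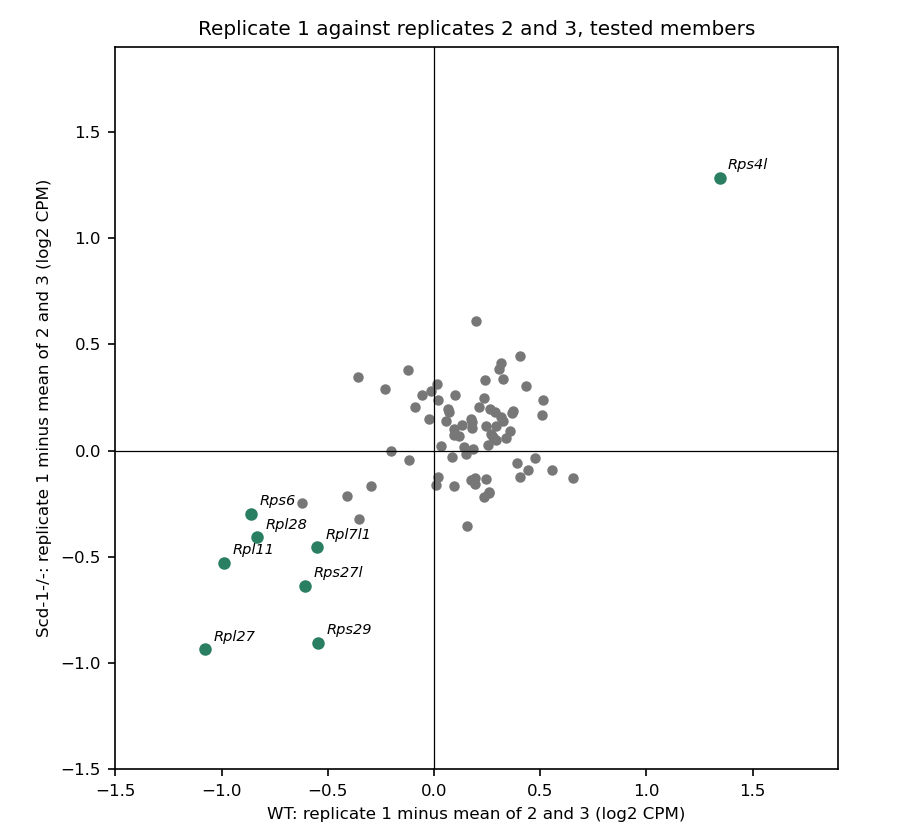
Difference of replicate 1 from the mean of replicates 2 and 3 in log2 CPM, in WT (horizontal) and Scd-1-/- (vertical), for the 81 tested ribosomal protein genes. The 8 named genes in green differ by more than 0.5 on average, 7 of them lower in replicate 1 and Rps4l higher, in the same direction in both genotypes.

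Genes that work with the cytosolic ribosomal proteins were counted beside the same background, in which 0.114% of all tested genes had an adjusted p under 0.05 and 10.1% an unadjusted p under 0.05, so 0 calls in lists of this size say nothing particular to them. Of 22 other TOP messages tested, such as elongation and initiation factors, none had an adjusted p under 0.05, 1 had an unadjusted p under 0.05 and the median log2 fold change was 0.08. Npm1, the nucleolar chaperone that helps to export ribosomal subunits, had 217, 185 and 229 FPKM in WT and 239, 284 and 329 FPKM in Scd-1-/- libraries, without overlap, at 0.46 (standard error 0.152, BH-adjusted p = 0.373, edgeR QL). Behind it by p came Eif3e at 0.34 (standard error 0.148), Naca at 0.20 (0.118) and Eif3a at 0.22 (0.135).

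Fau, which makes a 40S protein as a fusion with a ubiquitin-like protein, lies outside the naming rule. It had a log2 fold change of 0.13 (standard error 0.133), with overlapping groups, and of 0.014 without Scd-1-/- replicate 1. Of the 19 tested genes that control TOP messages (mTORC1, its regulators, S6 kinases, 4E-BPs, LARP1 and cap-binding factors) none had an adjusted p under 0.05, 1 had an unadjusted p under 0.05 and the median was -0.04. Eif4ebp2, a translation repressor that mTORC1 switches off, had the smallest p. It had 50.1, 62.3 and 51.9 FPKM in WT and 41.3, 47.7 and 37.5 FPKM in Scd-1-/- libraries, without overlap, at -0.36 (standard error 0.148, BH-adjusted p = 0.476, edgeR QL). Mtor, Rptor and Rheb followed, at -0.36, -0.29 and 0.29 with standard errors of 0.193, 0.158 and 0.162. Of 7 noncoding host genes of small nucleolar RNAs with TOP starts, none was called either, and Snhg12 (-0.51, standard error 0.197), Snhg8 (-0.23, 0.162), Snhg5 (0.22, 0.187, and 0.10 without WT replicate 2) and Snhg3 (0.17, 0.167) had the smallest p.

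Proteins of the mitochondrial ribosome, which translates the mRNAs of the mitochondrial genome, are the nearest comparison. All 77 were tested, none had an adjusted p under 0.05, 3 had an unadjusted p under 0.05, against 10.1% of all tested genes, and 58 lay above 0, against 49.9% of all tested genes, with a median log2 fold change of 0.10. Mrpl33 had 7.61, 7.75 and 8.26 FPKM in WT and 10.1, 10.2 and 10.97 FPKM in Scd-1-/- libraries, without overlap, at 0.43 (standard error 0.120, BH-adjusted p = 0.269, edgeR QL). Mrps31 at 0.53 (standard error 0.178), Mrps15 at 0.35 (0.148) and Mrps16 at 0.24 (0.119) came next by p. The higher share of mitochondrially encoded counts in the Scd-1-/- libraries stands beside these values, and its part in them was not tested. At the background of 0.114%, 0 calls among 77 genes is no result about this list, and its difference from the cytosolic list was not tested.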

How the data were processed

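Each of the 6 libraries had 1 deposited table of counts and FPKM per gene. The authors made the counts and FPKM values with HISAT2 and StringTie 1.3.0 on GRCm38 (submitters' notes). Methods and labels name different RNA and library kits. Deposited counts were tested with edgeR 4.0.16 (quasi-likelihood, TMM, no covariate) over the 9627 genes that averaged 1 FPKM or more, with Benjamini-Hochberg adjustment, and the script was tested on simulated data. Standard errors are the size of the log2 fold change divided by the square root of F. Alternatives used DESeq2 1.42.0 and limma 3.58.1 on log2(FPKM + 1) and log2(FPKM + 0.1). Copies were found with BLAST 2.17.0 on the sense strand. Totals of 14034479 to 15866216 counts set the precision, and a floor of 3 counts covers counting error only. Same-numbered libraries deviated together (correlations of 0.595, 0.306 and 0.470 over all tested genes, from the replicate numbers in the labels), so the block is printed where it changes a call. WT 3 with Scd-1-/- 2 (0.380) and WT 2 with Scd-1-/- 3 (0.180) also correlated, so replicate 1 stood apart more clearly than 2 and 3 did from each other. Named genes were the 10 members with the largest log2 fold change, the 5 highest and 5 lowest in FPKM, those beside the FPKM minimum, paralogs and parents, stalk genes, Rpsa, Rps6, Fau, Scd1 and up to 4 genes per list with the smallest p. Some genes under this rule are not reported here. Members and lists were chosen with earlier results of these data known. Marker lists for erythroid, platelet and stromal cells had no gene at 1 FPKM.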

Additional observations from a re-analysis of the deposited data

How the results depend on the processing

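No member passed the study thresholds under any of the alternatives, and the median log2 fold change stayed between 0.03 and 0.13. The number of members with an adjusted p under 0.05 was 1 with the replicate block, 1 with the block and copies added to their member (Rps27l in both) and 2 with replicates 2 and 3 alone (Rps27l and Rpl22l1), and 0 in every fit without 1 library. For other lists it moved with replicates 2 and 3 alone to 4 TOP messages, 4 mitochondrial ribosomal protein genes and 1 gene of TOP control, and with DESeq2 to 1 mitochondrial ribosomal protein gene (Mrpl33). The cause was not tested. The block changed no other call among the members or these lists, and added Klrb1c and Cd79b among the marker genes named. Klrb1c was tested only through its higher Scd-1-/- values, so its call supports nothing. The difference in summed share was -0.464 on summed FPKM and ran from -0.0324 to 0.434 without 1 library. Without 1 library, Rps4l ran from -0.90 to 0.30, Rplp0 from -0.064 to 0.067, Rpl22 from -0.028 to 0.20, Rpl7l1 from -0.18 to 0.13, the ratio of Rpl36al over Rpl36a from -0.0029 to 0.23 and that of Rpl7l1 over Rpl7 from -0.33 to 0.16. Other fold changes that moved by over 1.5 times were those of Eif3a (0.14 without WT replicate 2), Mrps15 (0.23 without Scd-1-/- replicate 3), Cd8b1 (-0.50 when Scd-1-/- replicate 1 was left out, -0.19 when replicate 2 of that genotype was) and Cd79b (-1.55 without Scd-1-/- replicate 1), beside those given with their genes. Of 619 values of 38 genes named with a fold change, 588 kept their direction and side of the threshold, 20 newly passed it and 11 reversed. Beyond the values without 1 library these reversals were all of Rplp0, at -0.00075 without the FPKM minimum, -0.015 with library totals and -0.013 with limma at either pseudocount. Low counts limit Rpl39l, Rps29, Rps27, Rpl23a and Rps4l, and reads shared with copies may limit the 78 members that have a copy, which was not tested. TMM factors without the members and median-ratio scaling turned none of these 38 genes, and library totals only Rplp0. Over all tested genes, calls with an adjusted p under 0.05 were 11, and 452 with the block. Copies and the ratio to a parent with its copies were added after seeing the data.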
